A study of Macaca mulatta with 43 samples.

Results

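The solute carriers of the cell surface and of intracellular vesicles were followed in the prefrontal cortex of rhesus macaques (Macaca mulatta) after 1 year of ethanol drinking. Genes were taken by name: every symbol that begins with SLC and a number and that has a probeset (the group of short array probes for 1 transcript) carrying no second gene symbol. The SLC25A family of the mitochondrion, the glial glutamate transporters SLC1A2 and SLC1A3 and the nucleoside transporter SLC29A1 were not included, which took 39 of 282 such genes away. The 243 genes that stayed, of 14132 genes with a single symbol on the array, belong to 49 SLC families and lie on 397 probesets. For the 99 genes with several probesets, the one with the highest mean over all arrays was used. The 236 genes whose probeset passed a filter on low values were tested, a probeset being dropped when it lay under 3.5 on the log2 scale in at least 80% of arrays. The 7 that did not pass were SLC13A1, SLC15A1, SLC26A3, SLC2A2, SLC6A14, SLC7A13 and SLC9C1. Of the 243, 3 are named for a neighbouring or regulated carrier and are not carriers themselves (SLC2A4RG, SLC7A6OS and SLC67A1-AS).

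Each of 43 arrays held RNA of 1 adult male aged 5 to 11 years, pooled from Brodmann areas 24, 25 and 32, which are the anterior cingulate and subgenual cortex. Drinkers were induced to drink by schedule-induced polydipsia and then had 4% (w/v) ethanol and water on offer for 22 h a day, whereas controls had water and a daily maltose dextran solution matched in calories. Cohort 4 gave 11 drinkers and no control, cohort 5 gave 8 drinkers and 5 controls, cohort 7a gave 8 drinkers and 4 controls, and cohort 7b gave 5 drinkers and 2 controls. RNA came from the RNeasy Mini Kit in cohorts 4 and 5 and from the All Prep DNA/RNA/miRNA Universal Kit in cohorts 7a and 7b, so that kit and cohort pair cannot be told apart. All values are log2 intensities, on which a difference of 1 is a doubling. In tissue of this kind, fewer cells of a type and less RNA per cell cannot be told apart.

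Solute carriers move ions, nutrients, metals and transmitters across membranes, mostly by coupling them to the gradient of sodium, protons or chloride. In the cortex they end and refill synaptic signals: carriers in the plasma membrane take transmitter up again, and carriers in the vesicle membrane load it for release. Others set the chloride and acid balance of neurons, pass glucose and lactate from blood to astrocytes and neurons, move zinc and iron, or bring nucleotide sugars into the Golgi apparatus.

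The 2 processing groups differed widely in a value taken from each array, the 3′ minus 5′ probeset difference of beta-actin. RNA state and array processing cannot be told apart in it. This actin value ran between 4.24 and 4.95 in cohorts 4 and 5 and between 0.75 and 1.71 in cohorts 7a and 7b. Within cohort 7a it was 1.26 ± 0.21 in 8 drinkers and 0.82 ± 0.06 in 4 controls (mean ± SD), with no overlap (exact permutation test, two-sided, p = 0.00202, the smallest this design allows, 0.00606 after Benjamini-Hochberg adjustment over 3 cohorts). In cohort 7b it was 1.10 ± 0.37 in 5 drinkers and 0.78 ± 0.04 in 2 controls (exact permutation p = 0.286, adjusted 0.429), and in cohort 5 it was 4.54 ± 0.20 in 8 drinkers and 4.50 ± 0.21 in 5 controls (exact permutation p = 0.718). Of the markers of cortical cell types, 3 of 6 microglial genes were lower with ethanol in cohort 7a, and 2 of 6 were lower and 1 was higher in cohort 7b. Among all probesets, 10.6% were higher and 20.3% lower in cohort 7a, and 14% and 26.1% in cohort 7b. The mean of the microglial list ran from 7.30 to 7.65 in drinkers and from 7.73 to 8.16 in controls of cohort 7a. Endothelial markers were lower for 3 of 5 genes in cohort 7b, where their mean ran from 6.91 to 7.07 in drinkers and from 7.19 to 7.23 in controls. Astrocyte markers were higher for 2 of 4 genes in cohort 7b, GFAP (0.84) and SLC1A2 (0.65), and their mean ran from 11.86 to 11.97 in drinkers and from 11.48 to 11.50 in controls. In cohort 7a, SLC1A2 alone among them was higher (0.30). Of 4 inhibitory neuron markers, GAD2 was higher over all animals (1.12, limma, adjusted p = 0.000946), in cohort 7a (1.51) and in cohort 7b (2.22). VIP was lower over all animals (-0.39, limma, adjusted p = 0.00429) and in cohorts 7a (-0.39) and 7b (-0.96). PVALB was lower in cohort 7b (-1.53), and GAD1 did not pass. The microglial AIF1 (-0.42) and P2RY12 (-0.49) were also lower over all animals, and no other listed marker passed there. Of all probesets, 5.57% were higher and 10.6% lower in that comparison. Of 3 neuronal markers, CAMK2A was higher in cohort 7b (0.40, limma, adjusted p = 0.0194), and SYT1 and STMN2 did not pass. Of 2 oligodendrocyte markers, CNP was higher in cohort 7b (0.18, limma, adjusted p = 0.0327), and MBP did not pass. SYT1 and STMN2 were among the brightest of the lists, and the dimmest marker was the endothelial FLT1, with a mean of 4.04. The part of these markers in the results that follow was not tested.

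**Figure D1:**
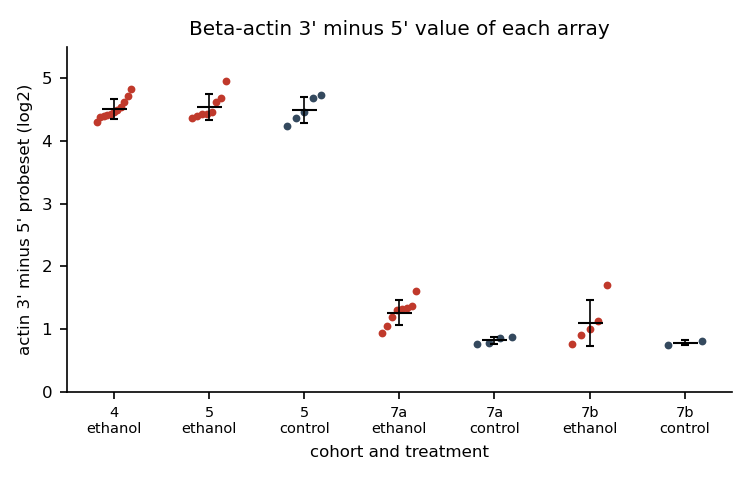
The actin value of each array (log2, vertical axis) by cohort and treatment, with the mean and SD of each group as black bars. Cohorts 4 and 5 lie between 4.24 and 4.95 and cohorts 7a and 7b between 0.75 and 1.71, and in cohort 7a all 8 drinkers lie above all 4 controls.

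Over all animals, 18 carriers were higher and 6 were lower in the 32 drinkers than in the 11 controls (limma, Benjamini-Hochberg adjusted p under 0.05 over all 24151 annotated probesets tested). These 24 are 10.2% of the 236 tested, whereas 16.2% of all probesets tested were called in this comparison. Among all probesets, 1345 were higher (5.57%) and 2556 lower (10.6%). At an adjusted p under 0.01, 9 carriers passed, beside 5.45% of all probesets. The median difference was 0.01 over the carriers and -0.04 over all probesets. Amino acid and transmitter carriers (SLC6A7, SLC43A1, SLC6A17, SLC1A4, SLC38A4 and SLC38A10) and bicarbonate or sodium-proton exchangers (SLC4A2, SLC4A3 and SLC9B1) were among those higher, and 4 of the 6 lower ones belong to the nucleotide sugar family SLC35. This fit held treatment alone, on values without batch adjustment. Cohort 4 had drinkers only, so treatment is partly mixed with cohort, kit and processing group in it. With the cohort as a block, 33 carriers were higher and 29 lower, 26.3% beside 33.3% of all probesets.

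Among the higher carriers, the largest differences that had 1 sign in cohorts 5, 7a and 7b were those of SLC43A1, SLC6A7, SLC9B1, SLC30A3 and SLC4A3. SLC6A7 carries proline into nerve terminals with high affinity. Its log2 intensity was 8.56, 8.74 and 8.99 in cohort 7a drinkers (lowest, median and highest of 8), against 7.81, 7.83, 8.11 and 8.12 in the 4 controls. In cohort 7b it was 8.71, 8.86, 8.95, 8.96 and 9.22 in drinkers, against 8.01 and 8.26 in controls. In cohort 5 the 8 drinkers had a lowest, median and highest of 8.76, 8.92 and 9.08, against 8.81, 8.85, 8.88, 8.88 and 8.90 in controls. Drinkers and controls were thus apart in cohorts 7a and 7b and overlapped in cohort 5, where all animals lay close to the level of the 11 cohort 4 drinkers (8.83 to 9.19). Over all animals SLC6A7 was 8.90 ± 0.15 in drinkers and 8.41 ± 0.46 in controls (SD), a difference of 0.50 ± 0.09 (SE) or 1.41-fold (adjusted p = 0.000946).

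SLC30A3 loads zinc into the synaptic vesicles of glutamatergic neurons. Cohort 7a drinkers had 9.57, 10.02 and 10.28 (lowest, median and highest of 8), against 9.12, 9.33, 9.39 and 9.55 in controls, and cohort 7b drinkers had 9.85, 9.99, 10.01, 10.15 and 10.23, against 9.31 and 9.43 in controls. In cohort 5 the lowest and the median of the drinkers were 9.55 and 9.76, against 9.61, 9.67, 9.68, 9.78 and 9.80 in controls, and the highest drinker lay above all controls. The groups did not overlap in cohorts 7a and 7b, though by as little as 9.57 against 9.55, and they overlapped in cohort 5. Over all animals the difference was 0.34 ± 0.07 (SE), 1.26-fold (adjusted p = 0.00167).

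SLC43A1 brings leucine, phenylalanine and other large neutral amino acids into cells without sodium. It was at 6.82, 7.10 and 7.48 in cohort 7a drinkers, against 6.35, 6.44, 6.49 and 6.72 in controls. Cohort 7b drinkers had 7.23, 7.26, 7.66, 7.70 and 8.01, against 6.32 and 6.71 in controls. Its spread was wide in cohort 5, with 7.10, 7.48 and 7.88 in drinkers, against 7.00, 7.38, 7.45, 7.67 and 7.89 in controls. The difference over all animals was 0.54 ± 0.15, the largest of the called carriers, at 1.46-fold (adjusted p = 0.0121).

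SLC4A3 exchanges chloride for bicarbonate in neurons and heart muscle. In cohort 7b drinkers it was at 9.07, 9.12, 9.30, 9.41 and 9.67, against 8.15 and 8.21 in controls. In cohort 7a the 8 drinkers had 9.14, 9.23 and 9.40, against 8.73, 8.91, 8.98 and 8.99 in controls, so that the step was larger in cohort 7b (1.13 ± 0.12, adjusted p = 3.93e-10) than in cohort 7a (0.35 ± 0.09, adjusted p = 0.00172), a contrast that was not itself tested. SLC9B1, a sodium-proton exchanger best known from sperm, was higher by 0.44 ± 0.12 over all animals (adjusted p = 0.0084), at 5.77, 6.15 and 6.68 in cohort 7a drinkers, against 5.38, 5.46, 5.62 and 5.74 in controls.

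The remaining carriers named for their size were smaller in difference. SLC27A1, which takes up long-chain fatty acids, was higher by 0.27 ± 0.07 (adjusted p = 0.00817). SLC6A17, a carrier of neutral amino acids on synaptic vesicles, was higher by 0.25 ± 0.09 (adjusted p = 0.0408), and the orphan organic ion carrier SLC22A23 by 0.24 ± 0.08 (adjusted p = 0.0296). The thiamine carrier SLC19A2 was higher by 0.24 ± 0.06 (adjusted p = 0.00828), and SLC38A10, an amino acid carrier related to the glutamine transporters, by 0.20 ± 0.07 (adjusted p = 0.0302).

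Both carriers that fell with 1 sign in the 3 cohorts are SLC35 family members without a well-defined substrate. SLC35G2 was at 7.72, 7.90 and 8.10 in cohort 7a drinkers, against 8.37, 8.38, 8.39 and 8.68 in controls. In cohort 7b it was at 7.99, 8.14, 8.19, 8.21 and 8.43 in drinkers, against 9.16 and 9.23 in controls. The 2 cohorts' controls thus stood apart from each other as well as from their drinkers, and in cohort 5 the drinkers (8.02, 8.25 and 8.43) overlapped the controls (8.27, 8.28, 8.31, 8.39 and 8.39). Over all animals SLC35G2 differed by -0.37 ± 0.09 (adjusted p = 0.00401). SLC35G1 differed by -0.31 ± 0.08 (adjusted p = 0.0059) near the floor of the array, with 3.41, 3.63 and 3.84 in cohort 7a drinkers, against 3.64, 3.77, 4.47 and 4.52 in controls, which overlapped.

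**Figure D2:**
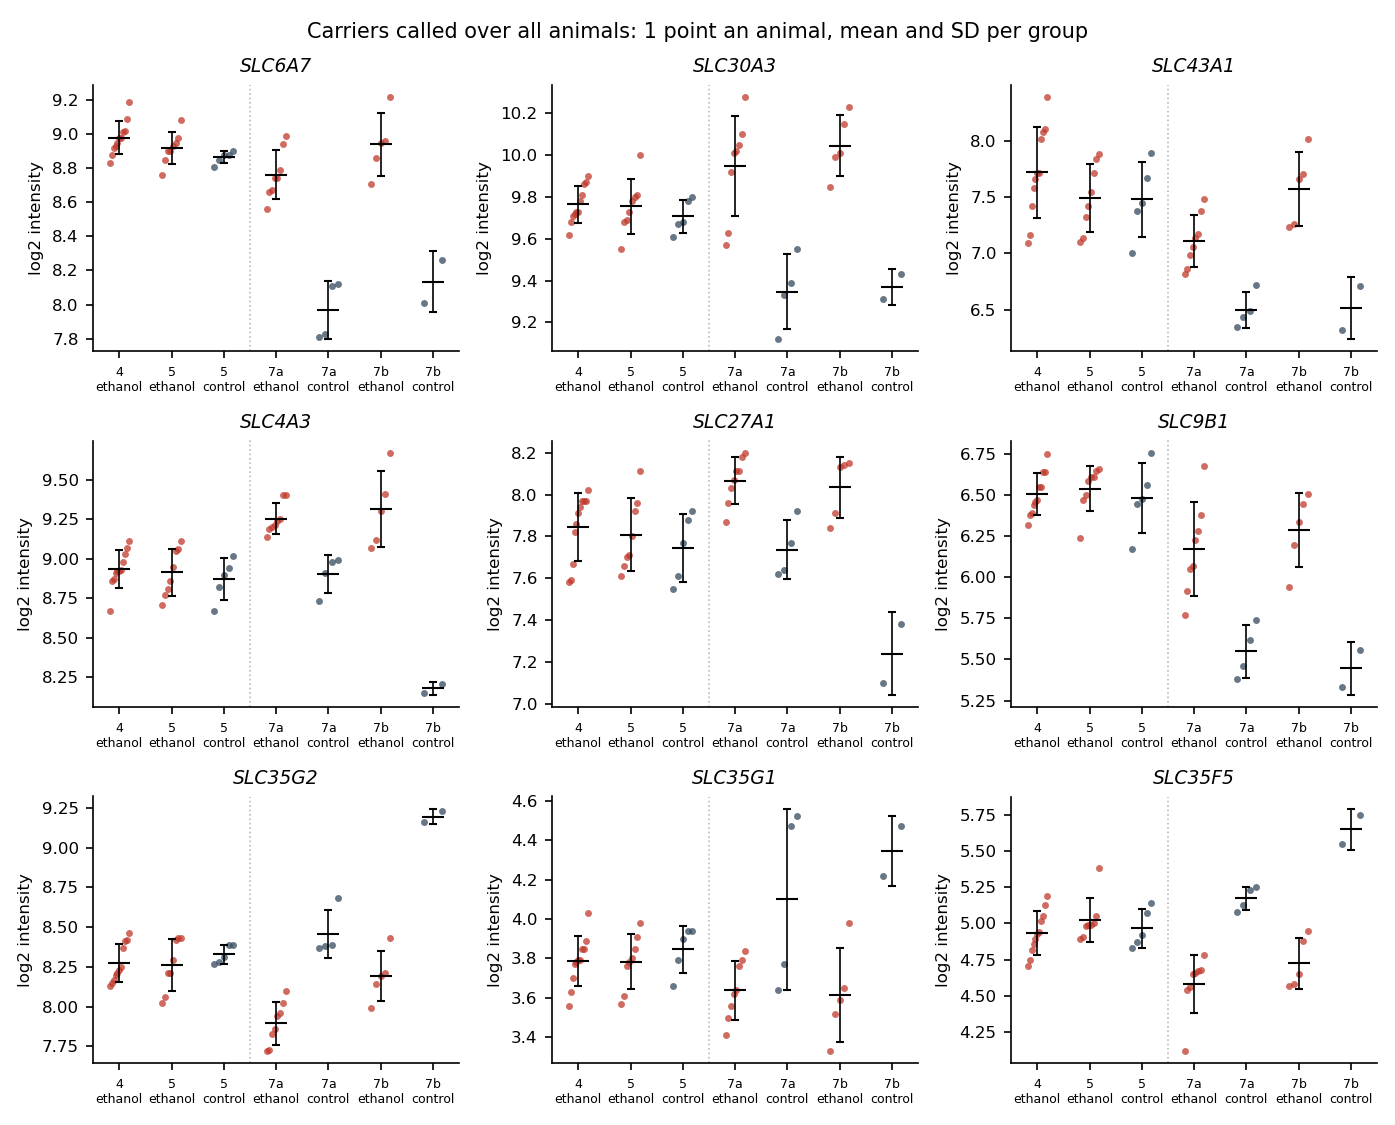
Log2 intensity (vertical axis) of 9 called carriers in every animal by cohort and treatment, with drinkers in red, controls in dark grey, and the mean and SD of each group as black bars. SLC6A7 is at 8.56 or above in all cohort 7a drinkers and at 8.12 or below in all cohort 7a controls, while in cohort 5 the groups overlap for all 9 genes.

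Of the 24 called carriers, 12 had a single tested probeset, and the other 12 had 19 further tested probesets, of which 9 had the same sign and 10 the opposite sign and none passed over all animals. The second SLC6A7 probeset, at a mean of 5.95, differed by 0.05 ± 0.13 (adjusted p = 0.832), and in cohort 7b by 0.33 (adjusted p = 0.0148). With the mean of all probesets of a gene in place of the brightest, 15 of the 24 still passed. SLC1A4 and SLC39A13 turned to -0.16 and -0.07, neither passing, and SLC6A17, SLC22A23, SLC38A10, SLC38A4, SLC12A9, SLC35A3 and SLC35C2 no longer passed. Some carriers outside the 24 had a further probeset that passed over all animals. That of SLC20A1, at a mean of 7.57, was higher by 0.93 ± 0.19 (limma, adjusted p = 0.0017), more than any called carrier. It was higher by 1.45 in cohort 7a and by 1.79 in cohort 7b. Further probesets were higher for SLC4A8 (0.42) and lower for SLC39A8 (-0.34), SLC12A1 (-0.23) and SLC35F6 (-0.16).

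The calls were divided unevenly among cohorts. In cohort 5 no carrier and no other probeset passed (limma), and 6 of 236 carriers had an unadjusted p under 0.05, as did 3.03% of all probesets. In cohort 7a, 36 carriers were higher and 23 lower, 25% of those tested, beside 30.9% of all probesets (10.6% higher and 20.3% lower). In cohort 7b, 36 were higher and 39 lower, 31.8% beside 40.1% of all probesets (14% higher and 26.1% lower), on the spread shared by the 7 groups and with 2 controls. The median size of a carrier's difference was 0.14 in cohort 7a and 0.18 in cohort 7b (median SE 0.09 and 0.12), and it was 0.05 in cohort 5 (median SE 0.08). Of the 24 carriers called over all animals, 23 passed in each of cohorts 7a and 7b and none in cohort 5, where their differences lay between -0.08 and 0.09. These 24 were chosen on animals that include those cohorts.

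Cohorts 7a and 7b share no animal, and 23 carriers were higher in both, 63.9% of each cohort's list, beside 72.3% of cohort 7a's and 54.9% of cohort 7b's list among all probesets. Another 16 were lower in both, 69.6% of the cohort 7a list and 41% of the cohort 7b list, beside 69.1% and 53.6% among all probesets. In cohorts 7a and 7b together, the 13 drinkers and 6 controls did not overlap for 8 carriers that were higher (SLC6A7, SLC30A3, SLC43A1, SLC4A3, SLC9B1, SLC1A4, SLC12A9 and SLC5A3) and 2 that were lower (SLC10A4 and SLC35F5). These 10 are 4.24% of carriers, beside 4.8% of all probesets (2.24% higher and 2.57% lower). In cohort 5 no carrier separated the groups, beside 0.166% of all probesets.

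The difference between cohorts was itself tested as the mean ethanol difference of cohorts 7a and 7b less that of cohort 5. It passed for 30 carriers in the higher direction and 29 in the lower, 25% beside 31.6% of all probesets (10.3% higher and 21.3% lower). The largest in the higher direction were SLC16A10, a carrier of aromatic amino acids and thyroid hormone (0.95 ± 0.21, adjusted p = 0.000427), and SLC43A1 (0.82 ± 0.23, adjusted p = 0.00618). The largest in the lower direction were SLC14A1, a urea carrier (-1.06 ± 0.33, adjusted p = 0.0122), and SLC39A8, which takes up zinc and manganese (-0.87 ± 0.14, adjusted p = 5.45e-06). SLC14A1 passed in cohort 7b (-1.03 ± 0.36, adjusted p = 0.0202) and had positive differences that did not pass elsewhere (0.66 ± 0.25 in cohort 5 and 0.23 ± 0.26 in cohort 7a). Its 5 cohort 7b drinkers were at 5.63, 5.87, 6.31, 6.37 and 6.57, against 6.72 and 7.63 in the 2 controls, which lay far from each other.

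**Figure D3:**
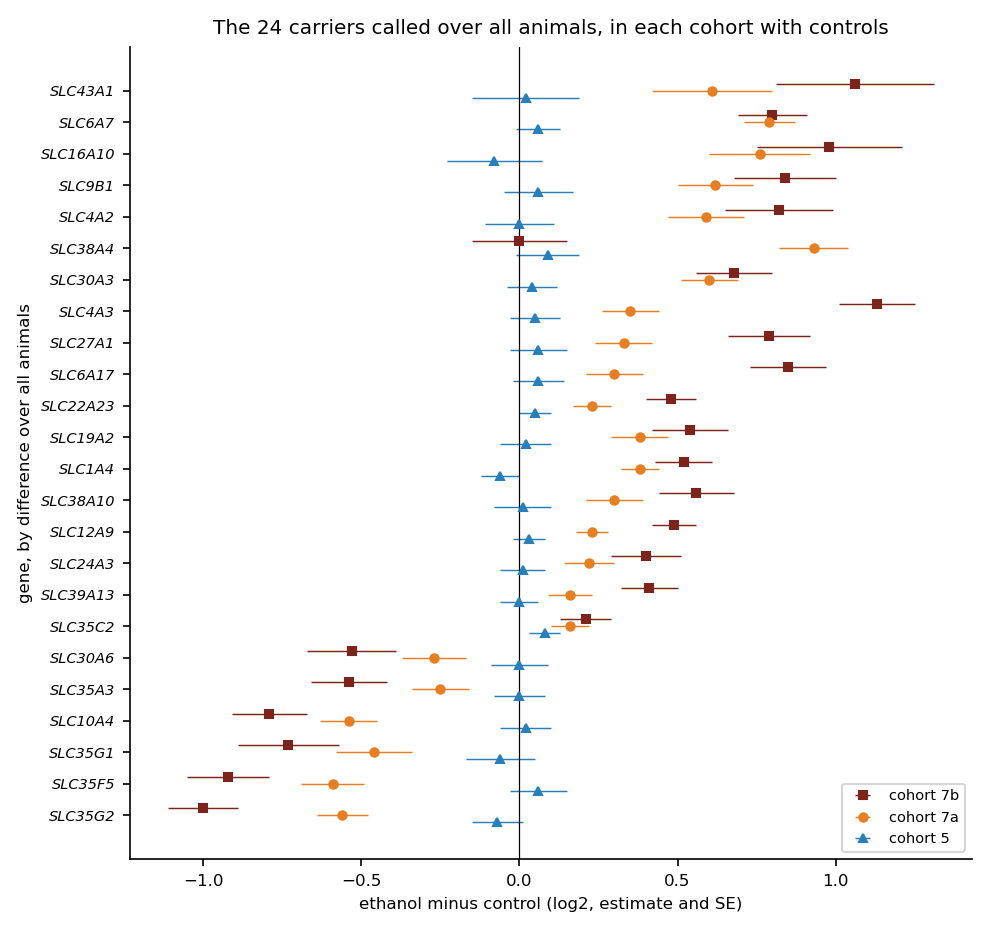
Ethanol minus control difference (log2, horizontal axis, estimate and SE) in cohorts 7b, 7a and 5 for the 24 carriers called over all animals, in the order of their overall difference. In cohort 5 all 24 lie between -0.08 and 0.09, and in cohort 7a they reach 0.93 for SLC38A4, which is at 0.00 in cohort 7b.

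Removing cohort 7b left 2 carriers called over all animals, SLC6A7 (0.43 ± 0.10, adjusted p = 0.0416) and SLC38A4, beside 0.712% of all probesets. Leaving out a single cohort 7b control left 11 or 13 carriers called in place of 24. With the 8 processing batches as a block, 23 carriers were higher and 16 lower (22.7% of all probesets were called), 21 of the 24 among them, and SLC24A3, SLC30A6 and SLC38A10 no longer passed. With the cohort as a block 33 were higher and 29 lower (33.3%). With the actin value and the cohort in the model 19 were higher and 7 lower (15.6%), and 17 of the original 24 were among them. With the actin value and the batch 7 were higher and 2 lower (6.95%), of which 5 were among the 24: SLC6A7, SLC30A3, SLC6A17, SLC22A23 and SLC35G2. Within cohorts, the actin value in the model left 33 carriers in cohort 7a (19.5% of all probesets) and 71 in cohort 7b (36.4%). Cohorts 7a and 7b alone gave 65 carriers (36.3%), all 24 among them, and cohorts 4 and 5 alone gave none (0 probesets). The part of RNA state or array processing in these differences was not tested beyond these models.

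Of 8 measured vesicular transmitter carriers, SLC30A3 alone passed over all animals, beside 16.2% of all probesets, and the list's median difference was 0.05, beside -0.04 over all probesets. SLC17A7, which fills vesicles with glutamate in most cortical excitatory neurons, differed by 0.01 ± 0.17 (adjusted p = 0.983). In cohort 7a it was at 8.69, 8.98 and 9.06 in drinkers, against 8.34, 8.74, 8.83 and 8.86 in controls, and the difference of 0.23 ± 0.10 did not pass (adjusted p = 0.0666). In cohort 7b the difference was 0.26 ± 0.13 (adjusted p = 0.11). With the cohort as a block over all animals it was 0.15 (adjusted p = 0.0444), and 88.1% of its variance over arrays lay between the 2 processing groups. SLC17A8, the vesicular glutamate carrier of scattered cholinergic, serotonin and inhibitory neurons, had a mean of 3.61, near the filter, and was lower in cohort 7b (-0.52 ± 0.17, adjusted p = 0.0137) but not past the threshold over all animals (-0.17 ± 0.08, adjusted p = 0.121). The nucleotide carrier SLC17A9 (0.00 ± 0.04), the monoamine carriers SLC18A1 (0.12 ± 0.08) and SLC18A2 (0.09 ± 0.07), the acetylcholine carrier SLC18A3 (-0.09 ± 0.05) and the polyamine carrier SLC18B1 (0.18 ± 0.17) did not pass, with adjusted p between 0.268 and 0.97. The cell bodies of monoamine neurons lie outside the cortex.

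None of 9 measured plasma membrane transmitter carriers passed over all animals, beside 16.2% of all probesets, and their median difference was -0.02. SLC1A6, a glutamate transporter best known from cerebellar Purkinje cells, was higher by 0.26 ± 0.07 in cohort 7a (adjusted p = 0.00635) and by 0.26 ± 0.10 in cohort 7b (adjusted p = 0.0357), against 0.12 ± 0.07 over all animals (adjusted p = 0.257). It passed over all animals once the cohort (0.18, adjusted p = 0.00198) or the processing batch (0.19, adjusted p = 0.00571) was a block. SLC6A12, which takes up betaine and GABA, was higher in cohort 7a (0.29 ± 0.11, adjusted p = 0.0377) and at 0.24 ± 0.09 over all animals (adjusted p = 0.0757). The differences over all animals were -0.05 ± 0.09 for the GABA transporter SLC6A11, -0.03 ± 0.06 and -0.06 ± 0.06 for the glycine transporters SLC6A9 and SLC6A5, 0.00 ± 0.06 for the noradrenaline transporter SLC6A2, and -0.02 ± 0.04 for the dopamine transporter SLC6A3. The 2 processing groups accounted for 77.1% of the variance of SLC6A11 over arrays, 59% for SLC1A6 and 56.7% for SLC6A12. For the other carriers of this list they accounted for at most 34.8%. The retinal glutamate transporter SLC1A7 and the choline transporter SLC5A7 differed by -0.02 ± 0.07 and -0.02 ± 0.04. The serotonin and neuronal glutamate transporters (SLC6A4 and SLC1A1) and the vesicular carriers SLC17A6 and SLC32A1 were not analysed here.

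Of 11 measured carriers of glutamine and other neutral amino acids, 2 were higher over all animals, SLC1A4 (0.23 ± 0.07, adjusted p = 0.0149) and SLC38A4 (0.35 ± 0.12, adjusted p = 0.045), none was lower, and the list's median was -0.02. Of all probesets, 5.57% were higher and 10.6% lower in this comparison, 16.2% in either direction. SLC1A4 exchanges alanine, serine and cysteine, and its brightest probeset separated drinkers from controls in cohorts 7a and 7b. Its further probesets differed by -0.39, -0.20 and -0.27 over all animals, and none passed there. The one at -0.20 was higher in cohort 7b (0.39, limma, adjusted p = 0.0436). SLC38A4 was at 7.03, 7.38 and 7.81 in cohort 7a drinkers, against 6.24, 6.49, 6.59 and 6.72 in controls. In cohort 7b the drinkers were at 7.72, 7.85, 8.04, 8.05 and 8.05, against 7.91 and 7.98 in controls, so that the groups overlapped there. A further SLC38A4 probeset was lower in cohort 7b (-0.67, adjusted p = 0.00251). The astrocytic glutamine carriers SLC38A3 and SLC38A5 differed by -0.02 and -0.09 and did not pass.

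Among 9 measured carriers that set chloride and bicarbonate, SLC4A2 (0.41 ± 0.13, adjusted p = 0.0229) and SLC4A3 were higher over all animals. Of all probesets, 16.2% were called in that comparison. SLC4A2 is the widely expressed relative of SLC4A3, and its second probeset differed by -0.01. In each of cohorts 7a and 7b, 3 of the 9 were higher and 2 lower. Among all probesets, 10.6% were higher and 20.3% lower in cohort 7a, and 14% and 26.1% in cohort 7b. The neuronal sodium-bicarbonate carrier SLC4A10 was lower in both (-0.27, adjusted p = 0.00864, and -0.38, adjusted p = 0.0038). SLC12A5, which keeps neuronal chloride low and so sets the sign of GABA currents, was higher in cohort 7a (0.22, adjusted p = 0.0119) and at 0.19 in cohort 7b (adjusted p = 0.103). SLC12A9, an orphan of the same family, was higher by 0.17 ± 0.04 over all animals (adjusted p = 0.00408). Of 6 sodium-calcium exchangers, SLC24A3 was higher over all animals (0.17 ± 0.06, adjusted p = 0.0354), beside 16.2% of all probesets called. This call was lost with the batch as a block (0.14).

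The nucleotide sugar family SLC35 had 22 members tested, of which 1 was higher and 4 lower over all animals, 2 higher and 6 lower in cohort 7a, and 1 higher and 10 lower in cohort 7b. Among all probesets, 10.6% were lower over all animals, 20.3% in cohort 7a and 26.1% in cohort 7b. SLC35F5, an orphan, was at 4.12, 4.66 and 4.78 in cohort 7a drinkers, against 5.08, 5.13, 5.23 and 5.25 in controls, and at 4.57, 4.58, 4.65, 4.88 and 4.95 in cohort 7b drinkers, against 5.55 and 5.75 in controls. The groups were apart in both cohorts, and the difference over all animals was -0.33 ± 0.09 (adjusted p = 0.00843). SLC35A3, which brings UDP-N-acetylglucosamine into the Golgi, differed by -0.23 ± 0.07 (adjusted p = 0.0218). SLC35C2, a Golgi protein tied to fucosylation, was the 1 higher (0.12 ± 0.03, adjusted p = 0.0134).

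Of 22 carriers of zinc and other metals, SLC30A3 and SLC39A13 (0.13 ± 0.04, adjusted p = 0.0342) were higher and SLC30A6 (-0.22 ± 0.07, adjusted p = 0.0312) was lower over all animals. In the same comparison 16.2% of all probesets were called. SLC30A6 brings zinc into the Golgi, and its mean of 3.46 lay under the filter's limit. SLC40A1, the iron exporter ferroportin, was lower in cohort 7a (-0.38 ± 0.11, adjusted p = 0.00609) and by the most of all carriers in cohort 7b (-1.16 ± 0.15, adjusted p = 2.87e-08). It was at 6.07, 6.35, 6.35, 6.40 and 6.48 in cohort 7b drinkers, against 7.45 and 7.52 in controls. In cohort 7a the drinkers were at 5.94, 6.43 and 6.58, against 6.53, 6.69, 6.85 and 6.91 in controls, so that the cohort 7b controls stood above all other animals of both cohorts. The second SLC40A1 probeset was also lower in cohort 7b (-0.73, adjusted p = 3.02e-05) and at -0.07 in cohort 7a (adjusted p = 0.653).

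SLC39A8 was at 6.24, 6.26, 6.43, 6.54 and 6.58 in cohort 7b drinkers, against 7.47 and 7.55 in controls. In cohort 7a it was at 6.78, 6.98 and 7.11 in drinkers, against 6.94, 7.09, 7.39 and 7.63 in controls. The groups were far apart in cohort 7b and overlapped in cohort 7a, with differences of -1.10 ± 0.15 (adjusted p = 1.4e-07) and -0.30 ± 0.11 (adjusted p = 0.0323). A second probeset was lower in both (-0.96, adjusted p = 4.89e-07, and -0.30, adjusted p = 0.0233), while 3 others did not pass in either. SLC10A4, a vesicle protein of cholinergic and monoamine neurons, was lower over all animals by -0.25 ± 0.09 (adjusted p = 0.0475).

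**Figure D4:**
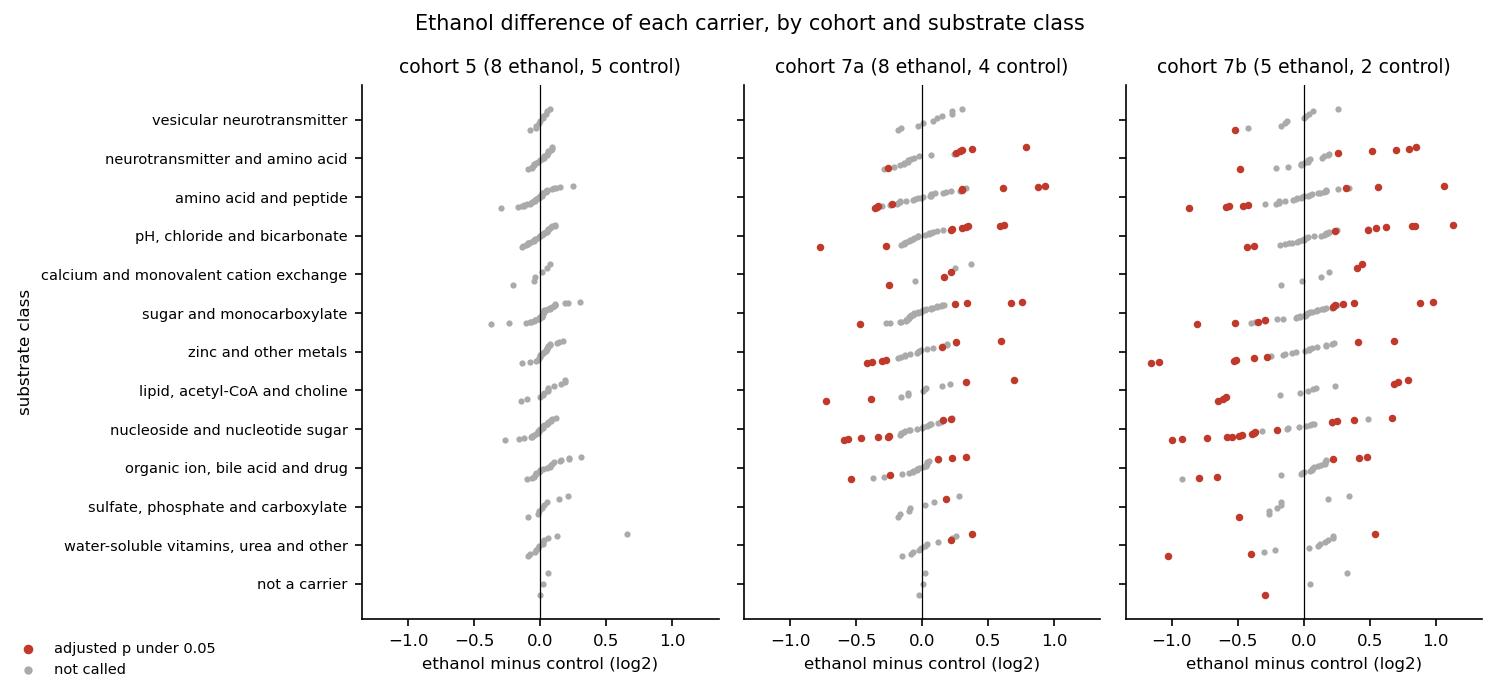
Ethanol minus control difference (log2, horizontal axis) of each of the 236 carriers in cohorts 5, 7a and 7b by substrate class (rows), with those past an adjusted p of 0.05 in red. No point is red in cohort 5, and in cohort 7b they run from -1.16 for SLC40A1 to 1.13 for SLC4A3.

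Drinkers were also compared between cohorts within a processing group. No carrier and no other probeset differed between cohort 5 and cohort 4 drinkers (limma), where 3.76% of all probesets had an unadjusted p under 0.05. Between cohort 7b and cohort 7a drinkers, 8 carriers were higher and 10 lower, 7.63% beside 11.9% of all probesets (4.54% higher and 7.32% lower). Of the 8 measured carriers of glucose, inositol and lactate supply, 4 were lower in cohort 7b drinkers (SLC2A1, SLC2A3, SLC2A13 and SLC16A1), none was higher, and the median was -0.35, beside 0.02 over the 236 carriers.

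SLC2A1 is the glucose transporter of the blood-brain barrier. Cohort 7b drinkers were at 8.20, 8.29, 8.34, 8.37 and 8.41, against 8.42, 8.64 and 9.33 (lowest, median and highest of 8) in cohort 7a drinkers. The 2 sets did not overlap, by as little as 8.41 against 8.42, and the difference was -0.44 ± 0.11 (adjusted p = 0.00532). Controls were at 8.69 and 8.71 in cohort 7b, above the drinkers of that cohort, and at 8.57, 8.68, 8.76 and 8.99 in cohort 7a. Controls of the 2 cohorts were not compared by a test. SLC16A1, which passes lactate and ketone bodies across endothelium and oligodendrocytes, was at 6.73, 6.85, 7.18, 7.26 and 7.27 in cohort 7b drinkers, against 6.99, 7.58 and 7.98 in cohort 7a drinkers (-0.51 ± 0.12, adjusted p = 0.00433). A second SLC16A1 probeset was lower (-0.33, adjusted p = 0.0295) and another, dimmer one higher (0.27, adjusted p = 0.0435). On the main SLC16A1 probeset, controls were at 7.52 and 7.63 in cohort 7b, above the drinkers of that cohort, and at 7.49, 7.67, 7.70 and 7.78 in cohort 7a.

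SLC2A3, the glucose transporter of neurons, was at 9.72, 9.79, 9.83, 9.88 and 9.93 in cohort 7b drinkers, against a median of 10.12 and a highest of 10.23 in cohort 7a drinkers, with no overlap (-0.28 ± 0.08, adjusted p = 0.0111). The 3 other SLC2A3 probesets (0.07, -0.16 and 0.03) and the second SLC2A1 probeset (0.04) did not pass in this comparison. Controls had SLC2A3 at 9.51 and 9.69 in cohort 7b and at 9.67, 9.76, 9.76 and 9.87 in cohort 7a. SLC2A13, the proton-coupled inositol carrier, differed by -0.68 ± 0.18 (adjusted p = 0.00782). Its level differed more between processing groups, with a drinker mean of 7.11 in cohorts 7a and 7b and 5.24 in cohorts 4 and 5. Controls had SLC2A13 at 7.30 and 7.69 in cohort 7b and at 7.28, 7.62, 7.64 and 7.92 in cohort 7a. SLC39A8 was lower in cohort 7b drinkers as well (-0.55 ± 0.10, adjusted p = 0.000358), and SLC38A4 was higher (0.50 ± 0.10, adjusted p = 0.000746).

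Of 5 endothelial markers, 2 were lower in cohort 7b than in cohort 7a drinkers, beside 7.32% of all probesets. These were CLDN5 (-0.38, limma, adjusted p = 0.0102) and VWF (-0.37, limma, adjusted p = 0.0406), while PECAM1, FLT1 and CDH5 did not pass. The list's median was -0.27, and its mean ran from 6.91 to 7.07 in cohort 7b drinkers and from 7.15 to 7.49 in cohort 7a drinkers. Of the other cell type markers, GAD2 was higher (0.63), SLC1A2 was lower (-0.36) and the rest did not pass. The part of any of these markers in the result was not tested. With the processing batch as a block, 4 carriers were higher and 4 lower, 7 of them among the 18. SLC2A1 (-0.54 ± 0.12, adjusted p = 0.00578), SLC16A1 (-0.57 ± 0.14, adjusted p = 0.0118) and SLC39A8 (-0.44 ± 0.13, adjusted p = 0.033) passed, while SLC2A3 (adjusted p = 0.0528) and SLC2A13 (adjusted p = 0.0883) did not.

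**Figure D5:**
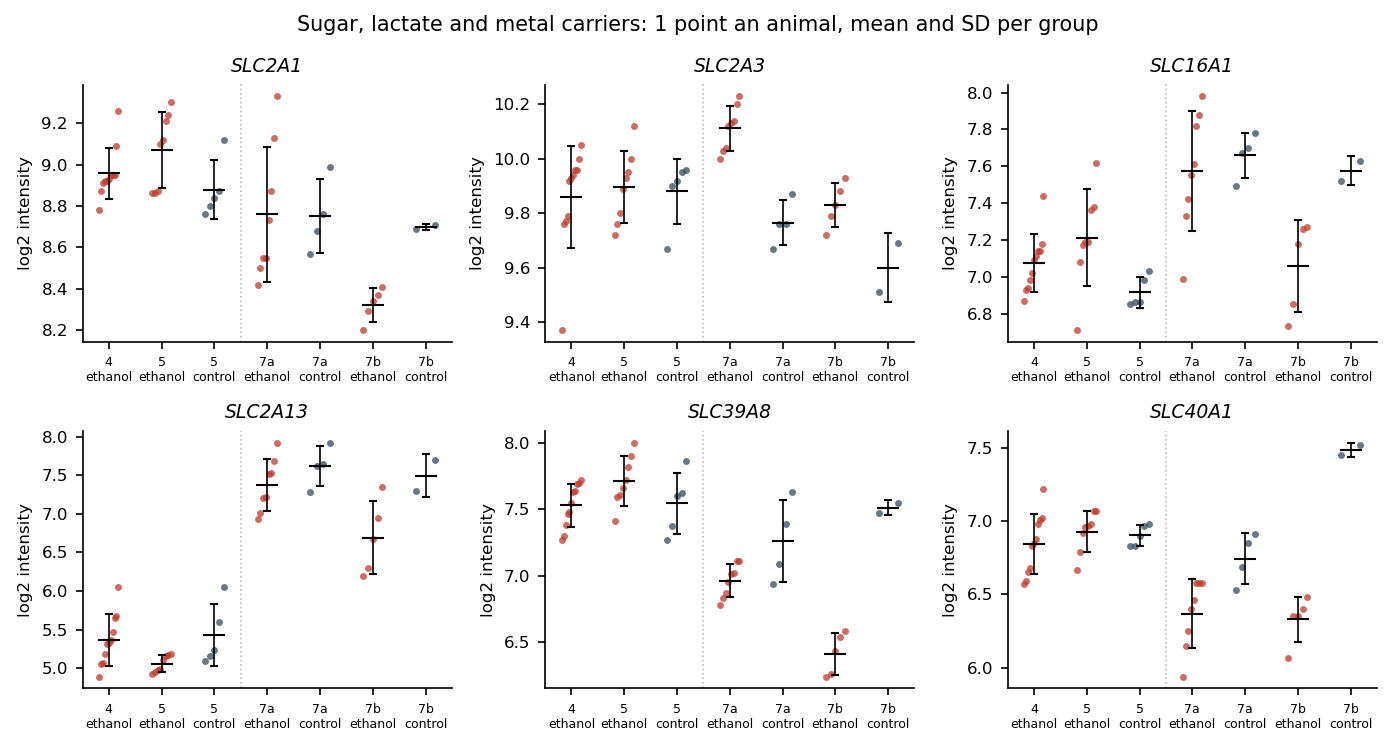
Log2 intensity (vertical axis) of 4 sugar and lactate carriers, SLC39A8 and SLC40A1 in every animal by cohort and treatment, with drinkers in red, controls in dark grey, and the mean and SD of each group as black bars. The 5 cohort 7b drinkers lie at 8.41 or below for SLC2A1, and the 2 cohort 7b controls lie at 7.45 or above for SLC40A1.

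Carriers varied between animals of 1 group by a median SD of 0.15, the same as all probesets, with 0.06 for SLC22A17 at the low end and 0.54 for SLC22A2 at the high end. The 2 processing groups accounted for a median of 19.5% of a carrier's variance over arrays, beside 23.2% over all probesets, and for more than 50% in 43 carriers (18.2%, beside 27.3% of all probesets). In cohorts 7a and 7b, the controls' mean lay farther from the cohort 5 controls than the drinkers' mean did for 19 of the 24 called carriers, 79.2%, beside 81.3% of all called probesets. For all 236 carriers it did so in 58.1%, beside 60.5% of all probesets, and kit and processing group cannot be told apart from cohort in these distances.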

How the data were processed

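RNA of 43 animals was measured on GeneChip Rhesus Macaque arrays, 1 array per animal. The deposited values are log2 intensities that the authors made by RMA in the affy package, with background correction and quantile normalization over all arrays; versions are not given in the sources used here. They hold no batch adjustment. Of 52865 probesets, 25317 carried a gene symbol in the platform annotation, 24956 of them a single symbol and 361 several. Both kinds went into the filter and the fits, and the carriers were taken from the single-symbol ones. A probeset was left out when it lay under 3.5 in at least 80% of arrays, which left 24151 annotated probesets. Differences were fitted on all of them with limma 3.58.1 in R 4.3.3 (lmFit and eBayes), with Benjamini-Hochberg adjustment over all tested and a threshold of 0.05. The comparison over all animals held treatment alone, the 2-class form of the study's methods, but on values without the study's ComBat batch adjustment and at a less strict threshold, and the cohort comparisons came from 1 fit of 7 cohort and treatment groups. The fits were tested on simulated data. The 8 processing batches are not in the labels and were inferred as sets of arrays whose order of values was the same in the study's batch-adjusted table, none of whose values is reported.

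Named in full were the 10 largest differences each way among carriers that passed over all animals with 1 sign in cohorts 5, 7a and 7b, all measured vesicular and plasma membrane transmitter carriers, and the 2 largest each way in the test between cohorts. Other carriers were named as examples, some after their values were seen. The members and lists were chosen with earlier results of these data known. The number of arrays limits the precision.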

Additional observations from a re-analysis of the deposited data

Results flagged for a closer look

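Of 155 groups of 4 to 10 animals checked for a single distant animal, 10 had one, where chance gives about 7.8. The distant animal was the lowest for SLC16A10 among cohort 7a drinkers (5.64), SLC6A3 among cohort 5 drinkers (6.29), SLC9B1 among cohort 5 drinkers (6.24), and SLC6A11 and SLC6A2 among cohort 7b drinkers (5.67 and 4.38). It was the highest for SLC17A8 among cohort 5 drinkers (3.96), SLC6A2 among cohort 5 drinkers (4.87), SLC6A9 among cohort 7a drinkers (5.74), SLC18A1 among cohort 7a controls (6.24) and SLC35G2 among cohort 7a controls (8.68), all on the log2 scale.

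Over all probesets 31.6% passed limma's test of the ethanol difference of cohorts 7a and 7b less that of cohort 5. For 15 of 31 named carriers, the mean ethanol difference of cohorts 7a and 7b differed from that of cohort 5 in this test, a count partly set by how they were chosen, since SLC16A10, SLC43A1, SLC14A1 and SLC39A8 were named for their size in it and 12 carriers for passing over all animals. The difference of differences was above 0 for SLC16A10 (0.95), SLC43A1 (0.82), SLC6A7 (0.74), SLC4A3 (0.70), SLC9B1 (0.67), SLC30A3 (0.60), SLC6A17 (0.52), SLC27A1 (0.50), SLC19A2 (0.44), SLC38A10 (0.42) and SLC22A23 (0.31). It was below 0 for SLC14A1 (-1.06), SLC39A8 (-0.87), SLC35G2 (-0.71) and SLC35G1 (-0.54). Cohort, RNA kit and processing group cannot be told apart in this test.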

How the results depend on the processing

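The count of 24 carriers called over all animals was 9 at an adjusted p under 0.01, 62 with the cohort as a block, 39 with the batch as a block, and 9 with the actin value and the batch. It was 2 without cohort 7b, 0 in cohorts 4 and 5 alone, 65 in cohorts 7a and 7b alone and 54 there with the batch as a block, and leaving out 1 control gave 11 to 32. The cohort 7a count of 59 was 33 with the actin value, 38 in a fit on that cohort alone, and 42 to 59 without 1 animal. The cohort 7b count of 75 was 49 in a fit on that cohort alone and 48 to 76 without 1 animal, the lowest without control 37. The test between cohorts gave 44 to 60 without 1 animal, against 59, and cohort 5 gave 0 throughout. The 18 carriers that differed between cohort 7b and cohort 7a drinkers were 8 with the batch as a block and 13 to 27 without 1 drinker. The actin difference without 1 animal was -0.02 to 0.10 in cohort 5, 0.43 to 0.46 in cohort 7a and 0.17 to 0.41 in cohort 7b. In cohorts 4 and 5 alone, SLC10A4 (0.05), SLC16A10 (-0.07), SLC1A4 (-0.05), SLC35F5 (0.01) and SLC4A2 (-0.02) changed sign, and with the mean of all probesets SLC1A4 (-0.16) and SLC39A13 (-0.07) did. The cause was not tested. With that mean, 12 carriers were higher and 11 lower, against 18 and 6. No paired analysis was possible because the animals' numbers are not shared between groups. Another background correction or normalization was not run, since only RMA values were used.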
